A study of Mus musculus with 82 samples.

Results

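C57L and C57BR are inbred mouse strains of the C57 family that carry brown or leaden coats, and they were set here against the black strains C57BL/10J and C57BL/6J. The arrays compared were chosen by their labels alone, 11 of the 82 arrays of the series. One side held 4 arrays, 2 with the background label C57L/J and 2 titled C57BR. The other side held 7 arrays, 2 labelled C57BL/10J and 5 labelled C57BL/6J. Each array measured total RNA of naive CD4 T cells, sorted by flow cytometry from the spleens of pooled male mice. The sort kept CD3+ CD4+ CD62L+ cells and left out cells with exclusion markers, among them CD8, CD11c, CD25, CD49b, Gr1 and Ter119. The mice were bred by 1 supplier, and the labels give an age of 6 weeks for every group, where the design text gives a younger age. The design text names spleen T cells as sorted but, in 1 sentence on the arrays, bone marrow granulocytes, and the marker levels of the sorted T cells are given below. All comparisons are between whole inbred genomes, so a difference cannot be placed on a single locus from the levels alone.

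The C57 strains descend from 1 small founding cross. C57BL was separated early from the brown C57BR line, C57BL was later divided into C57BL/10 and C57BL/6, and C57L arose from C57BR stock as a mutant with a leaden coat. The strains still share much of their genome. At the major histocompatibility complex, C57L and the C57BL strains are known for the b haplotype, and C57BR and CBA for the k haplotype.

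The titles and the background labels disagreed for 2 arrays. For both C57BR arrays the title and the strain background differ, the background being given as CBA/CaJ, so they are called C57BR-titled here. Between strain means, 35 probe sets differed by 2-fold or more between C57BR-titled and C57L/J arrays, against 197 between C57BR-titled and CBA/CaJ arrays. The median correlation of log2 intensities over all probe sets was 0.9948 between C57BR-titled and C57L/J arrays and 0.9889 between C57BR-titled and CBA/CaJ arrays. H2-Ob, a chain of the class II modulator DO encoded in the histocompatibility complex, had 682 and 543 on the C57L/J arrays, against 99.6 and 94.7 on the C57BR-titled arrays, and averaged 96.5 in CBA/CaJ. Since C57BR and CBA are both known for the k haplotype, the H2-Ob level cannot tell the title from the label.

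Array medians ran from 105.9 to 114.2 in the C57L/J and C57BR-titled arrays and from 102.4 to 141.8 in the C57BL arrays, where the highest was C57BL/6J replicate 5. The genes that define the sorted cells were bright on all 11 arrays, with Cd3e at 5317 or more and Cd4 at 4484 or more, and Cd8a was at 99.0 or less. The mean log2 levels of markers of myeloid, neutrophil, erythroid, platelet, natural killer, CD8 T and dendritic cells overlapped between the branches. In the test described below, 2 of 12 natural killer markers were lower (16.7 percent, beside 1.84 percent of all probe sets lower). Among 8 CD8 T cell markers, 1 was higher and 1 lower (25 percent, beside 2.94 percent of all probe sets). Myeloid and neutrophil markers held 1 call each, of 19 and 17, and the other lists 0. The mean of 17 B cell markers was 5.65 to 5.79 on the log2 scale in C57L/J and C57BR-titled arrays, against 5.82 to 6.22 in C57BL arrays. One of them, Cd72, was itself among the genes that differed most, and without it the mean of the other 16 was 5.65 to 5.82 against 5.67 to 6.12. The defining B cell gene Ms4a1 was dim throughout, at 22.9 to 26.6 against 18.8 to 26.2. Cd79a, another B cell gene, was dim too and lay lower, at 32.5 to 48.3 against 42.7 to 54.6. Only Cd72 of the 17 was called in the test described below (5.88 percent, beside 2.94 percent of all probe sets). In sorted bulk cells, fewer cells of a type and less RNA per cell cannot be told apart.

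Values are linear array intensities in arbitrary units, taken to log2 for tests. A probe set was called in limma where its adjusted p, Benjamini-Hochberg over all 24922 probe sets, was under 0.05, with each strain at equal weight. It was said to split the branches where it was called and all 4 C57L/J and C57BR-titled arrays lay beyond all 7 C57BL arrays. The limma fit across the 82 arrays called 732 probe sets, which is 2.94 percent. Of these, 273 were higher (1.1 percent of all) and 459 lower (1.84 percent of all) in the C57L/J and C57BR-titled arrays. The median difference over all probe sets was -0.036. The lower share of the calls was 62.7 percent as deposited, 52.5 percent after quantile normalization and 47.8 percent after centring each array on its median, where 853 and 439 probe sets were called.

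A total of 438 probe sets (1.76 percent) split the branches, 144 of them higher and 294 lower, and 62 by 2-fold or more. Of the 438, 329 carried 1 gene symbol, from 296 genes. The typical split was small, with a median difference of 0.45 in either direction on the log2 scale. Over strain means, where the 2 strains of each branch are the replicates, 76 probe sets were called (0.305 percent), 73 of them also splitting the arrays. The p-values of the array fit measure the spread between pools of mice of 1 strain, whereas those of the strain means measure the spread between strains. The count of 732 became 448 without C57BR-titled replicate 2, 462 without C57L/J replicate 2 and 455 without C57BL/10J replicate 3.

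Pairs of strains that share no array were compared within the same fit across the 82 arrays, so they share its estimate of spread. C57L/J against C57BL/6J gave 434 calls (1.74 percent) and C57BR-titled against C57BL/10J gave 535 (2.15 percent). A total of 143 probe sets were called the same way in both, 58 higher and 85 lower, and 7 in opposite ways. The 143 make up 32.9 percent of the first list and 26.7 percent of the second, and 137 of them split all arrays. The 2 pairs together hold all 11 arrays of the split rule, so that overlap is partly built in.

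Aass and Gdpd3 were bright in C57L/J and C57BR-titled cells and dim in C57BL cells. Aass encodes the bifunctional enzyme that opens lysine breakdown in mitochondria. Its intensity was 4131 and 4260 in the C57L/J arrays and 3831 and 4158 in the C57BR-titled arrays, against 22.6 to 43.3 (median 31.6) in the C57BL arrays. The groups lay 125-fold apart with no overlap (log2 difference 6.97, SE 0.13, adjusted p = 1.72e-42). Gdpd3, a phosphodiesterase that releases lysophospholipids, had 4662 and 3512 in the C57L/J arrays and 3894 and 4407 in the C57BR-titled arrays, against 65.7 to 89.0 (median 79.9) in the C57BL arrays. This is a 53.2-fold difference (log2 difference 5.73, SE 0.10, adjusted p = 1.72e-42). Both also passed over strain means, with adjusted p = 2.10e-06 for Aass and 1.04e-06 for Gdpd3 in limma.

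Dmbt1, a secreted scavenger receptor protein of mucosal surfaces, had 413, 341, 354 and 464 in the C57L/J and C57BR-titled arrays, against 59.6 to 73.1 (median 68.8) in the C57BL arrays. That is 5.79-fold higher with no overlap (log2 difference 2.53, SE 0.10, adjusted p = 4.83e-26). Cxcr2, a chemokine receptor best known on neutrophils, had 154, 148, 169 and 192, against 24.3 to 39.9 (median 32.4) in the C57BL arrays. It was 5.44-fold higher (log2 difference 2.44, SE 0.15, adjusted p = 2.88e-18), while the neutrophil genes S100a8 and S100a9 were at 21.0 to 26.6 and 78.0 to 94.96, against 21.1 to 32.5 and 63.1 to 113.4. H60b, a ligand of the natural killer receptor NKG2D, had 429 and 413 in C57L/J and 633 and 676 in C57BR-titled arrays, against 144 to 248 (median 171) in the C57BL arrays. The difference was 3.13-fold (log2 difference 1.65, SE 0.19, adjusted p = 4.50e-09).

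Mtmr9, a catalytically inactive member of the myotubularin lipid phosphatase family, had 3196, 3375, 2597 and 2874, against 624 to 958 (median 832) in the C57BL arrays, 4.00-fold higher (log2 difference 2.00, SE 0.087, adjusted p = 8.13e-25). Id2, an inhibitor of basic helix-loop-helix factors that is low in naive and raised in effector T cells, had 2308, 2054, 2814 and 2521, against 1012 to 1289 (median 1067) in the C57BL arrays. It was 2.18-fold higher and all 4 arrays stood above all 7 (log2 difference 1.13, SE 0.12, adjusted p = 3.45e-10). The F-box genes Fbxo17 and Fbxo27, which encode substrate receptors of ubiquitin ligases for glycoproteins, were 3.31-fold and 2.03-fold higher (adjusted p = 4.13e-21 and 1.15e-11). Rgs3, a regulator of G protein signalling, Car2, a carbonic anhydrase, Cnot8, a deadenylase subunit, and Hal, the histidine-degrading ammonia lyase, were 2.05-fold to 2.26-fold higher. The other probe set of Cnot8 was not called (log2 difference 0.36, adjusted p = 0.0809), whereas those of Mtmr9 and Rgs3 were also higher (log2 difference 1.84 and 0.72). Vmn2r96, a member of the vomeronasal receptor family, had 385 to 661, against 65.7 to 210.2 (median 126) in the C57BL arrays, and its adjusted p over strain means was 0.0509.

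Raver2, which encodes an RNA-binding protein, met the same rule through 1 strain. It had 441, 401, 414 and 393 in C57L/J and C57BR-titled arrays, against 75.1 and 56.6 in C57BL/10J arrays and 344, 307, 384, 315 and 362 in C57BL/6J arrays. The C57BL/6J arrays thus lay just under the C57L/J and C57BR-titled ones, and C57BL/10J far below. The branch difference of 1.47 (adjusted p = 3.31e-16) became 0.27 without the strain C57BL/10J (adjusted p = 0.239), and over strain means the adjusted p was 0.803.

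**Figure D1:**
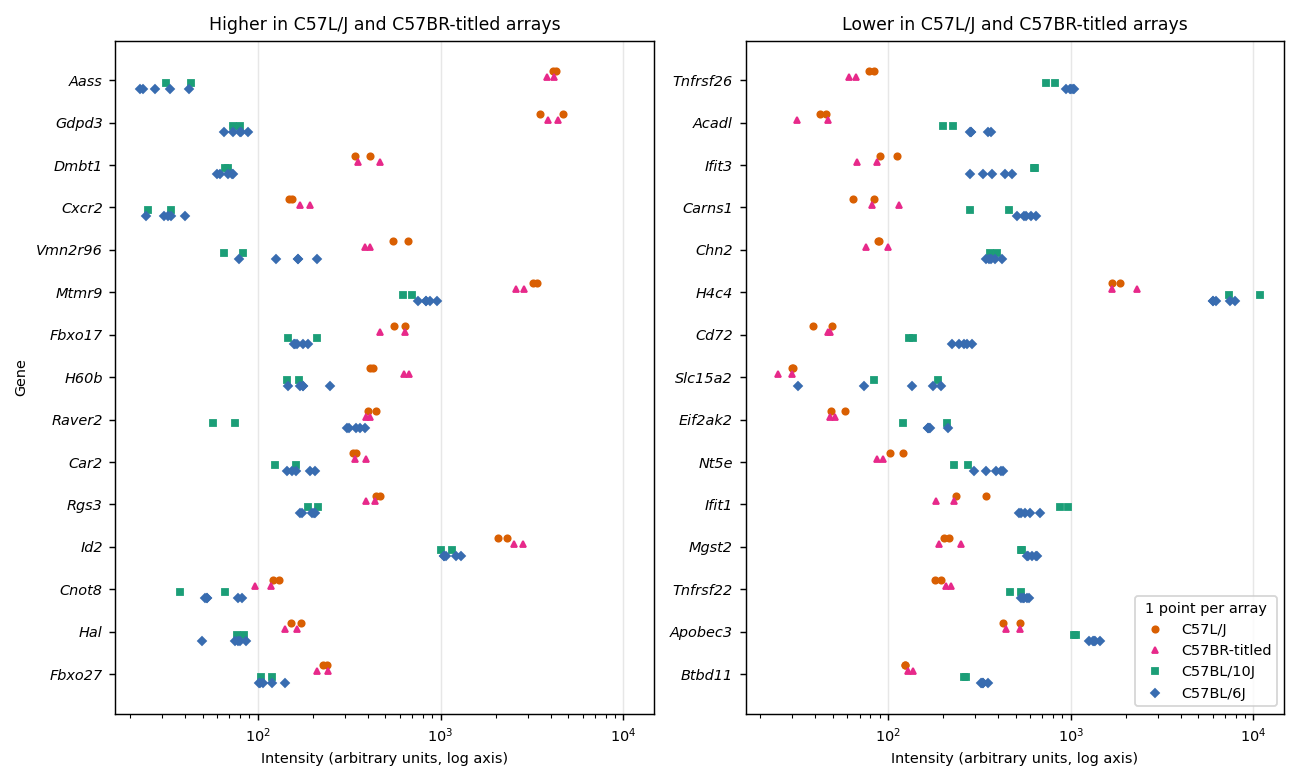
Intensity on each of the 11 arrays (log axis) of the 15 genes with the largest differences in each direction among those that split the branches, with 1 point per array and 1 colour and shape per strain group. All points of C57L/J and C57BR-titled lie beyond all points of C57BL/10J and C57BL/6J for each gene. Aass and Gdpd3 show the widest gaps, and Raver2 and Slc15a2 show gaps that are narrow against C57BL/6J.

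Tnfrsf26 had the largest difference among the named genes that were lower. It encodes a decoy-type receptor of the tumour necrosis factor receptor family, of the same group as Tnfrsf22 and Tnfrsf23, which bind the death ligand TRAIL in mice. Its intensity was 84.3 and 78.3 in the C57L/J arrays and 66.5 and 61.5 in the C57BR-titled arrays, against 736 to 1041 (median 988) in the C57BL arrays. It was 12.2-fold lower with no overlap (log2 difference -3.62, SE 0.079, adjusted p = 1.19e-38). Tnfrsf22 had 196, 181, 208 and 222, against 465 to 595 (median 547) in the C57BL arrays, and was 2.63-fold lower (log2 difference -1.40, SE 0.082, adjusted p = 2.18e-19). Tnfrsf23 was lower by less, at 54.0 to 67.3 against 89.9 to 135 (log2 difference -0.86, SE 0.11, adjusted p = 3.17e-08). Fas, the death receptor of the same superfamily, went the other way, with 419.8, 373, 367 and 400.1 in C57L/J and C57BR-titled arrays, against 191 to 247 (median 231) in the C57BL arrays. Fas was 1.75-fold higher (log2 difference 0.81, SE 0.11, adjusted p = 2.68e-07), and it was the only 1 of 22 measured genes of apoptosis and survival that was called (4.55 percent, near the 2.94 percent of all probe sets).

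Acadl, the mitochondrial long-chain acyl-CoA dehydrogenase of fatty acid oxidation, had 42.7, 45.8, 31.96 and 46.8, against 200.5 to 364 (median 285) in the C57BL arrays, 6.23-fold lower (log2 difference -2.64, SE 0.14, adjusted p = 1.78e-21). Carns1, which joins beta-alanine and histidine to carnosine, had 84.2, 64.7, 82.1 and 116, against 282 to 644 (median 557) in the C57BL arrays, 5.37-fold lower (log2 difference -2.42, SE 0.13, adjusted p = 4.13e-21). Both sets of values were clear of each other. Mgst2, a microsomal glutathione transferase, had 215, 202, 190.2 and 252, against 534 to 658 (median 585) in the C57BL arrays, 2.69-fold lower (log2 difference -1.43, SE 0.12, adjusted p = 3.85e-13). Of 36 measured genes of glutathione and redox metabolism, 4 were called, 1 higher and 3 lower (11.1 percent, beside 2.94 percent of all probe sets), and 2 were called without C57L/J replicate 1. Nnt, the mitochondrial transhydrogenase that is deleted in part in C57BL/6J, had 460.5, 457, 526 and 489, against 463 and 416 in C57BL/10J arrays and 315, 332, 347, 348 and 331 in C57BL/6J arrays. The C57BL/10J arrays overlapped the C57L/J and C57BR-titled ones and the C57BL/6J arrays lay below all of them (log2 difference 0.33, SE 0.071, adjusted p = 0.00192).

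Lower genes of lymphocyte surfaces and signalling included Cd72, Nt5e and Chn2. Cd72, an inhibitory C-type lectin best known on B cells, had 49.1, 38.8, 48.0 and 47.2, against 130.2 and 138 in C57BL/10J arrays and 290.2, 244, 272, 262 and 225 in C57BL/6J arrays. It was 4.08-fold lower with no overlap (log2 difference -2.03, SE 0.19, adjusted p = 1.95e-11). With the mean of the 17 B cell markers, Cd72 among them, as a covariate the difference was -1.86 (adjusted p = 7.15e-18). Nt5e encodes CD73, the enzyme that makes adenosine at the cell surface and that marks regulatory and some memory T cells. It had 103, 121, 87.4 and 94.0, against 229.8 to 424 (median 346) in the C57BL arrays, 3.03-fold lower (log2 difference -1.60, SE 0.13, adjusted p = 2.92e-14). Chn2, a GTPase-activating protein for Rac, had 76.1 to 99.8, against 344 to 423, and Btbd11, which encodes an ankyrin repeat and BTB domain protein, had 124 to 137, against 262 to 355. They were 4.28-fold and 2.32-fold lower (adjusted p = 8.13e-25 and 1.36e-17). Slc15a2, a peptide transporter, had 25.1 to 30.1, against 188 and 83.5 in C57BL/10J arrays and 32.3, 195, 73.8, 136 and 177 in C57BL/6J arrays. The lowest C57BL/6J array nearly met the C57L/J and C57BR-titled range, and the adjusted p of 2.53e-08 became 0.0525 when the 11 arrays were fitted alone.

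Type I interferon is secreted on viral infection and acts through transcription factors on a short promoter element, the interferon-stimulated response element, to raise a large set of antiviral genes. Naive T cells hold a low tonic level of many of these transcripts in the absence of infection. Of 33 measured genes of this response, 14 were lower and 0 higher in C57L/J and C57BR-titled arrays (42.4 percent, beside 1.84 percent of all probe sets lower), and 6 split the branches. The list median was -0.37, against -0.036 over all probe sets, and 30 of the 33 had a negative difference. The mean of the list per array was 8.08 to 8.40 on the log2 scale in C57L/J and C57BR-titled arrays, against 8.50 to 8.83 in C57BL arrays, with no overlap. The 14 and 0 calls were 14 and 0 after quantile normalization and 10 and 0 after median centring.

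The promoters of 4 of the lower genes are shown because they carry the sequence through which these genes are known to be induced together. Each run is the 250 bases before the annotated gene start, 5′ to 3′ on the gene's strand, from RefSeq on GRCm38.p6, which is the genome of C57BL/6J. Capitals mark matches to the core of the response element, GAAANNGAAA or its reverse complement TTTCNNTTTC, and overlapping matches were allowed.
Ifit3: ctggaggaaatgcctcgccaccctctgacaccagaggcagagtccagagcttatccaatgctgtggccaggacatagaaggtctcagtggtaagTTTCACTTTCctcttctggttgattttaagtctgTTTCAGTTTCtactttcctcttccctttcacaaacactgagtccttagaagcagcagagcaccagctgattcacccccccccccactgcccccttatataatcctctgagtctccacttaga
Ifit1: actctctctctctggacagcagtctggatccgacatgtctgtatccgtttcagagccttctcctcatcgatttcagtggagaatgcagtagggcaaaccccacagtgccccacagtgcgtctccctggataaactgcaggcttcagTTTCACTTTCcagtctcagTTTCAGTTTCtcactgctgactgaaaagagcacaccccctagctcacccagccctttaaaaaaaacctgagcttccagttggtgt
Rsad2: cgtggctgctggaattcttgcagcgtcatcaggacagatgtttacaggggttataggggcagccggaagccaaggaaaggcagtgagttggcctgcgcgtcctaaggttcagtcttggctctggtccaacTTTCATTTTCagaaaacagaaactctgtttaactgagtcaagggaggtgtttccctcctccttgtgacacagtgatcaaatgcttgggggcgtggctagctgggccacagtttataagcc
Oas3: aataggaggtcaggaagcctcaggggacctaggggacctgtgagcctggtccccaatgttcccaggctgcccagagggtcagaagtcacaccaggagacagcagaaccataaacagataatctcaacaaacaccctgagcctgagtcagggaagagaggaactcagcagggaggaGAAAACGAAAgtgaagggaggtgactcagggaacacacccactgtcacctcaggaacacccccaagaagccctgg
The windows lie at chr19:34583279-34583528 and chr19:34640639-34640888 on the plus strand, and at chr12:26456453-26456702 and chr5:120777660-120777909 on the minus strand. Among the 14 lower interferon genes, 10 had an entry and 5 of those held a match. Among the other interferon genes measured, 4 of 12 with an entry held one. Over all 32851 promoters of the table, 2.98 percent held a match in the same window, and among genes of split probe sets 11 of 241 did (4.56 percent). The variants that C57L and C57BR carry in these windows were not analysed here.

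Ifit3 and Ifit1, whose proteins sequester viral RNA and signalling factors, had the largest differences of the interferon list. Ifit3 had 112 and 90.3 in the C57L/J arrays and 67.4 and 87.3 in the C57BR-titled arrays, against 637 and 627 in C57BL/10J arrays and 373, 280.5, 479.9, 333 and 438 in C57BL/6J arrays. It was 5.54-fold lower, with C57BL/10J highest and no overlap of the branches (log2 difference -2.47, SE 0.22, adjusted p = 2.96e-12). Ifit1 had 345 and 236 in the C57L/J arrays and 184 and 231 in the C57BR-titled arrays, against 962 and 875 in C57BL/10J arrays and 602, 537, 679.9, 566 and 523 in C57BL/6J arrays, 3.01-fold lower (log2 difference -1.59, SE 0.17, adjusted p = 1.36e-09). Ifit1bl2, an Ifit family gene next to Ifit1, had 37.6 to 52.4, against 77.1 to 116 (log2 difference -1.05, SE 0.12, adjusted p = 6.27e-09). In contrast to these, Ifit2 had 377 to 459, against 410.0 to 611, with adjusted p = 0.294.

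The 2-5-oligoadenylate synthase family, whose active enzymes make the activator of the antiviral RNase L, was lower in part. Oasl2 had 297, 241, 182 and 184, against 343 to 528 (median 413) in the C57BL arrays (log2 difference -0.93, SE 0.12, adjusted p = 1.84e-07). Oas2 had 536, 442, 299.9 and 274, against 460.2 to 1014 (median 595) in the C57BL arrays (log2 difference -0.85, SE 0.16, adjusted p = 1.83e-04), and there C57L/J replicate 1 overlapped the C57BL arrays. Oasl1 and Oas3 were lower too (log2 difference -0.66 and -0.42), whereas Oas1a and Oas1c had differences of -0.37 and -0.04 with adjusted p = 0.226 and 0.923. Rsad2, the radical SAM enzyme viperin, had 81.0, 72.2, 54.2 and 47.4, against 83.6 to 157 (median 107) in the C57BL arrays (log2 difference -1.03, SE 0.18, adjusted p = 7.38e-05). Usp18, the protease that removes ISG15 and dampens the receptor, had 670.4, 628, 412 and 419.6, against 632 to 1168 (median 738) in the C57BL arrays (log2 difference -0.81, SE 0.13, adjusted p = 9.11e-06), with 1 C57L/J array inside the C57BL range and the other just below it. Irf7, the factor that amplifies the response, Dhx58, a modulator of RNA sensing, Isg20, an exonuclease, Ifi27l2a, Cmpk2 and Ifit3b were lower as well, with log2 differences of -0.41 to -0.74. The transcription factor genes Stat2 and Irf9 were not called, with Stat2 at -0.10 (adjusted p = 0.653) and Irf9 at -0.10 (adjusted p = 0.654). The surface gene Ly6e, at 0.11 (adjusted p = 0.746), had the other sign.

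**Figure D2:**
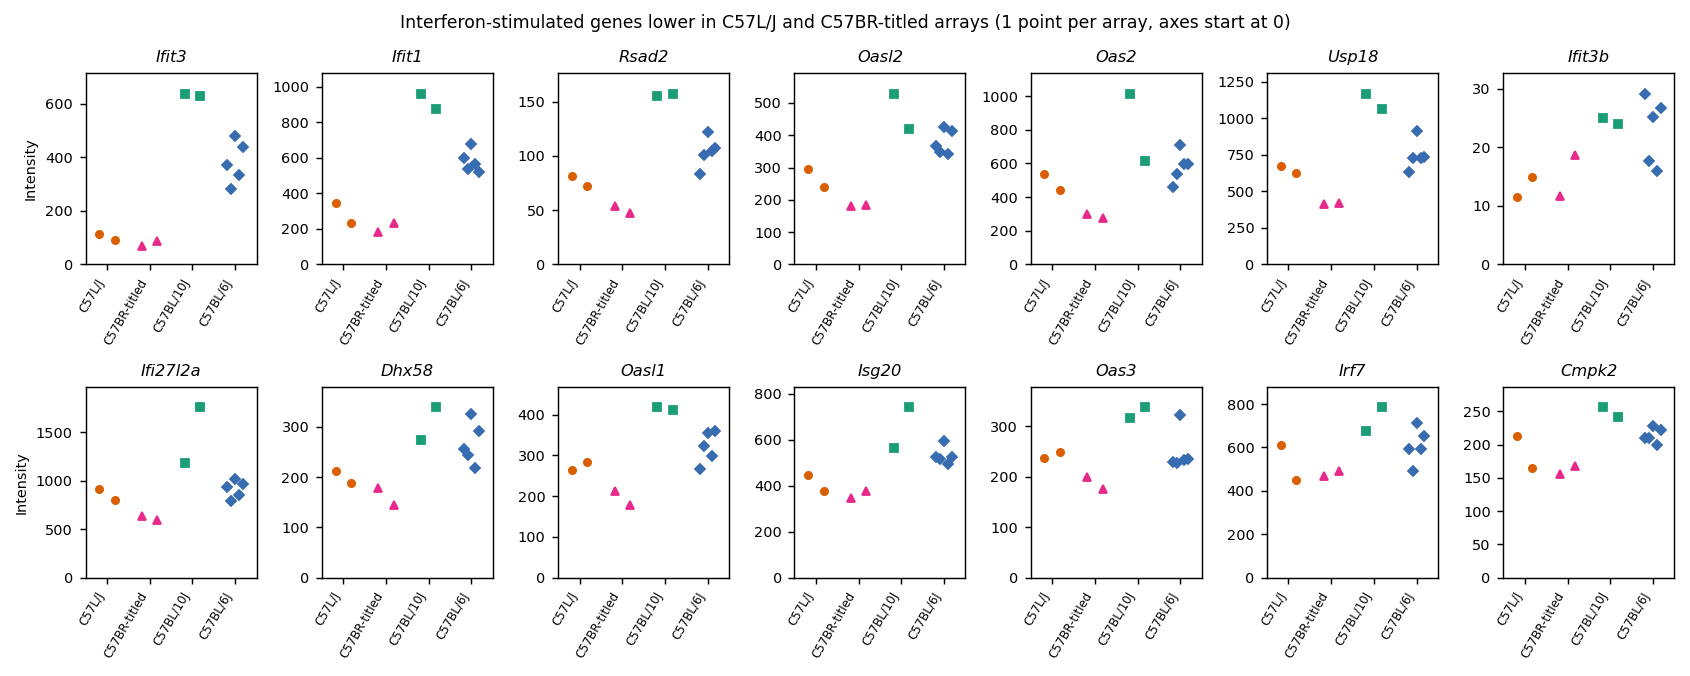
Intensity per array of the 14 interferon-stimulated genes that were lower in C57L/J and C57BR-titled arrays, 1 panel per gene with 1 point per array and a linear axis from 0. C57BR-titled arrays lie at or below C57L/J arrays in most panels, C57BL/10J arrays lie highest in most, and Ifit3 and Ifit1 show the clearest gap.

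The strains within a branch were not level in these genes. C57L/J arrays had interferon list means of 8.40 and 8.29, against 8.08 and 8.12 in C57BR-titled arrays, and C57BL/10J arrays had 8.83 and 8.73, against 8.50 to 8.71 in C57BL/6J arrays. Without the strain C57BR-titled, 4 of the 33 were called, and without C57BL/10J, 9 were. Over strain means, limma called 1 of the 33, Ifit3 (adjusted p = 0.012), and 18 had an unadjusted p under 0.05. None of the 33 was called between C57L/J and C57BR-titled, and 2 were between C57BL/10J and C57BL/6J, Usp18 and Ifi27l2a (log2 difference 0.59, SE 0.16, adjusted p = 0.0384 for Usp18).

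Antiviral genes outside that list were among the largest lower differences. Eif2ak2 encodes PKR, the kinase that stops translation on sensing double-stranded RNA. It had 58.5, 48.8, 48.0 and 51.5, against 122 to 212 (median 168) in the C57BL arrays, 3.25-fold lower with no overlap (log2 difference -1.70, SE 0.14, adjusted p = 8.35e-14). Apobec3, a cytidine deaminase that restricts retroviruses, had 528, 428, 445 and 531, against 1044 to 1440 (median 1318) in the C57BL arrays, 2.48-fold lower (log2 difference -1.31, SE 0.098, adjusted p = 4.15e-15). Fv1, a capsid-binding restriction factor against murine leukaemia virus, was higher, at 301 to 387 against 176 to 289 (log2 difference 0.63, SE 0.14, adjusted p = 0.0036), a call lost without C57BL/10J replicate 3. In the related families of the guanylate-binding proteins, Ifi200, Trim5 and Trim30, and Schlafen, 1 of 34 measured genes was called, Gbp8. That share is like the 2.94 percent of all probe sets.

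In Gbp8 and H2-Ob, C57BR-titled arrays lay apart and C57L/J arrays lay with C57BL. Gbp8, an interferon-inducible GTPase, had 1269 and 1327 in the C57L/J arrays and 280.3 and 279.8 in the C57BR-titled arrays, against 1380 and 767 in C57BL/10J arrays and 1216, 1337, 1452, 1184 and 1181 in C57BL/6J arrays. The C57L/J arrays lay inside the C57BL range, and without the strain C57BR-titled the difference was 0.18. H2-Ob had 682 and 543 in the C57L/J arrays and 99.6 and 94.7 in the C57BR-titled arrays, against 517 to 894 in C57BL arrays (log2 difference -1.44, SE 0.15, adjusted p = 6.61e-10). H2-DMa, a chain of the class II peptide exchange factor, had 291, 219, 135 and 181, against 299 to 468 (median 446) in the C57BL arrays (log2 difference -1.004, SE 0.15, adjusted p = 1.83e-06). The nonclassical class I genes diverged, with H2-T10 higher, at 647 to 955 against 319.5 to 510.5 (log2 difference 0.97, SE 0.12, adjusted p = 6.48e-08), and H2-T24 lower, at 629 to 1034 against 952 to 1195 (log2 difference -0.46, SE 0.092, adjusted p = 6.25e-04). H2-T24 had 889 and 1034 in the C57L/J arrays and 649 and 629 in the C57BR-titled arrays. Without the strain C57BR-titled, its log2 difference was -0.17 (adjusted p = 0.877). That of H2-DMa was then -0.66 (adjusted p = 0.0516), so both calls were lost. The transporter and proteasome genes Tap1, Tap2, Psmb8 and Psmb9 and B2m had adjusted p between 0.153 and 0.925. The class II chains H2-Aa and H2-Ab1 were dim on all arrays, at 39.99 to 44.5 and 37.6 to 47.7 against 37.5 to 66.3 and 37.9 to 64.2.

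Of 24 genes that define naive T cells, 4 were lower and 0 higher (16.7 percent, beside 1.84 percent of all probe sets lower), and of 29 genes of T cell receptor signalling and 29 cytokine receptors, 0 were called. Ms4a4b, a tetraspan membrane protein of naive and T helper 1 cells, had 1776, 1798, 2060 and 2171, against 3049 to 3966 (median 3454) in the C57BL arrays (log2 difference -0.80, SE 0.077, adjusted p = 1.88e-11). Myb, Id3 and Igfbp4, genes of quiescent or immature T cells, were lower too, with log2 differences of -0.33 to -0.47. Thy1, a surface glycoprotein of all mouse T cells, was lower at 2489 to 3376, against 3481 to 4053, with no overlap (log2 difference -0.30, SE 0.088, adjusted p = 0.0431), the 1 call among 13 genes of the receptor complex and coreceptors (7.69 percent, beside 2.94 percent of all probe sets). Thy1 lost its call under 14 of the 24 alternatives, both other scalings included. In that list 4 genes were higher and 0 lower after quantile normalization, and 0 were called after median centring. The 4 calls among naive T cell genes became 1 without C57BR-titled replicate 1, C57BR-titled replicate 2 or C57L/J replicate 2, and 2 without C57BL/10J replicate 3, and after quantile normalization 4 were lower and 7 higher. Trbv1, a variable segment of the T cell receptor beta chain, had 5322, 4158, 4775 and 4893, against 2326 to 3330 (median 2688) in the C57BL arrays (log2 difference 0.81, SE 0.11, adjusted p = 2.61e-07). It was the only call among 8 variable segments (12.5 percent, beside 2.94 percent of all probe sets). Of 18 regulatory T cell genes, 2 were lower (11.1 percent, beside 1.84 percent of all probe sets lower), Nt5e and Izumo1r, the folate receptor 4 gene (log2 difference -0.52, SE 0.12, adjusted p = 0.00494). Izumo1r lost its call without C57BL/10J replicate 3, without the strain C57L/J, without the strain C57BR-titled and under the replicate block.

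Genes of activated or memory T cells did not move one way. Of 36 measured, 3 were higher (Id2, Anxa2 and Cd44) and 2 lower (Crip1 and Ahnak), 13.9 percent of the list beside 2.94 percent of all probe sets. The 5 calls became 2 or 3 without either C57BR-titled array or C57L/J replicate 1. Cd44, the hyaluronan receptor that rises on activation, had 322, 316, 328 and 325, against 227 to 316 (median 294) in the C57BL arrays (log2 difference 0.27, SE 0.071, adjusted p = 0.0174), which overlapped, since the highest C57BL array stood above the lowest C57L/J one. In homing genes, 3 of 25 were called, 2 higher and 1 lower (12 percent, beside 2.94 percent of all probe sets). After quantile normalization 6 were higher and 1 lower, and after median centring 2 and 0. Itgb3 and Itgal, integrin chains of adhesion, were higher (log2 difference 0.42, SE 0.078, adjusted p = 2.36e-04 for Itgb3). Cxcr4, the receptor for the homing chemokine CXCL12, had 326, 335, 343 and 380.2, against 938 and 721 in C57BL/10J arrays and 352, 696, 357, 797 and 486 in C57BL/6J arrays. The C57BL/6J arrays spread widely, and 2 of them lay within the C57L/J and C57BR-titled range (log2 difference -0.90, SE 0.24, adjusted p = 0.0209). The Cxcr4 call was lost under 12 of the 24 alternatives, among them median centring, equal weight per array and leaving out either C57L/J array, either C57BR-titled array or C57BL/10J replicate 1.

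Natural killer receptor genes and their Clec2 ligands held 4 calls of 25, 3 higher and 1 lower (16 percent, beside 2.94 percent of all probe sets). Klrd1, the CD94 chain of the NKG2 receptors, had 448, 349, 479 and 575, against 209 to 362 (median 302) in the C57BL arrays (log2 difference 0.70, SE 0.15, adjusted p = 0.00184). Klrb1f, a C-type lectin-like receptor, had 60.8 to 119.9, against 43.2 to 61.8 (log2 difference 0.76, SE 0.12, adjusted p = 2.27e-05), and H60b was the other higher member. The groups of Klrd1 and Klrb1f each overlapped at their edges. Both calls were lost without the strain C57BR-titled, and that of Klrd1 also without the strain C57BL/10J. Clec2i, a C-type lectin ligand of that receptor family, had 394, 419, 546 and 589, against 744 to 1085 (median 957) in the C57BL arrays (log2 difference -0.91, SE 0.10, adjusted p = 1.50e-09). The sort excluded natural killer cells, and the natural killer gene Ncr1 was at 19.5 to 20.9 in C57L/J and C57BR-titled arrays, against 19.2 to 28.6 in C57BL arrays. Natural killer cell markers held 2 calls of 12, both lower (16.7 percent, beside 1.84 percent of all probe sets lower). After quantile normalization 1 was lower, and after median centring 1. In inflammasome genes, Nlrp1b was lower and Naip2 higher, 2 calls of 19 (10.5 percent, beside 2.94 percent of all probe sets). Naip2 lost its call under 6 of the 24 alternatives, among them leaving out C57BL/10J replicate 3 or C57BR-titled replicate 2. In KRAB zinc finger genes, 2 of 38 were higher and 2 lower (10.5 percent, beside 2.94 percent of all probe sets), with Zfp980 at 19.7 to 41.9 against 7.004 to 20.6 and Zfp974 at 25.9 to 34.6 against 42.3 to 99.5. Both of these genes were dim, below the median of all values (113.0), and the Zfp980 groups overlapped.

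Histone and ribosomal protein genes were lower where called, but these counts followed single arrays. Of 30 clustered histone genes, 9 were lower and 0 higher (30 percent, beside 1.84 percent of all probe sets lower). H4c4 had 1869, 1681, 2301 and 1674, against 6004 to 10860 (median 7369) in the C57BL arrays (log2 difference -2.05, SE 0.16, adjusted p = 1.62e-14), and its neighbour H2bc4 had 62.7 to 95.1, against 137 to 230.2. Histone copies are near-identical, so probes of one may read another, and these levels are uncertain. Without C57BL/10J replicate 1 the count was 20, without C57BL/10J replicate 3 it was 4, and without C57BR-titled replicate 2 it was 5. H4c6 shows the spread, with 463 and 1374 on the C57BL/10J arrays. Of 57 cytosolic ribosomal protein genes, 8 were lower and 0 higher (14.0 percent, beside 1.84 percent of all probe sets lower), 5 after quantile normalization and 2 after median centring. The list mean was 10.99 to 11.14 on the log2 scale in C57L/J and C57BR-titled arrays, against 11.16 to 11.39 in C57BL arrays. Leaving out each of the 6 arrays of C57L/J, C57BR-titled and C57BL/10J in turn gave between 1 and 17. Rpl26, of the large subunit, had the largest of these differences, with 362, 294, 381 and 321, against 457 to 728 (median 527) in the C57BL arrays (log2 difference -0.72, SE 0.11, adjusted p = 7.14e-06). In oxidative phosphorylation 1 of 71 genes was called (1.41 percent), Cox7a2, a subunit of cytochrome c oxidase (log2 difference -0.79, SE 0.097, adjusted p = 2.17e-08). No gene was called among 37 cell cycle genes, 36 immediate early and stress genes or 9 coat colour genes, beside 2.94 percent of all probe sets.

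Some of the genes that split the branches lay beside each other. In the annotation order of 19677 placed genes, of which 1.5 percent split, 19 runs of 2 or more direct neighbours held 44 of the 296 splitting genes (14.9 percent). A splitting gene lay within 5 places of 95 of the 296. The longest run, of 4 genes, held Tnfrsf26, Tnfrsf22 and Tnfrsf23, all lower, and Osbpl5, an oxysterol-binding protein gene, higher (log2 difference 0.37, SE 0.071, adjusted p = 4.14e-04). In 10 of the 19 runs all genes moved one way, and in 9 they did not.

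Other runs joined genes described above to their neighbours. Apobec3 shared a run with D730005E14Rik, which was lower (log2 difference -1.79, SE 0.13, adjusted p = 2.72e-16), and Cbx7, a Polycomb chromobox gene that was lower at 554 to 686 against 867 to 1282. Id2, higher, shared a run with Rnf144a, a ubiquitin ligase gene that was lower at 183 to 214 against 395 to 556 (log2 difference -1.20, SE 0.068, adjusted p = 6.09e-20), and with the interferon gene Rsad2, lower. Among related membrane protein genes, Ms4a4b and Ms4a6c were lower and Ms4a6b higher, at 5077 to 5706 against 3741 to 4904. Fbxo17 lay beside Fbxo27, both higher. H60b, higher, lay beside E030030I06Rik, lower (log2 difference -0.96, SE 0.10, adjusted p = 3.45e-10). Pvr, the ligand of DNAM-1 and TIGIT, and the adjacent immunoglobulin superfamily gene Igsf23 were lower together (log2 difference -0.59, SE 0.082, adjusted p = 6.37e-07 for Pvr and log2 difference -1.01, SE 0.11, adjusted p = 1.65e-09 for Igsf23). Plcxd2 and Cd96, a receptor for Pvr, were lower together as well, with Cd96 at 1935 to 2685 against 2918 to 3345.

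Of the remaining runs, several joined genes of opposite direction. Cyp20a1 was lower and Abi2 higher, Ap1s3 lower and Wdfy1 higher, Btbd11 lower and the clock gene Cry1 higher, and Nfkbiz lower and Nxpe3 higher. In a run of Zfp933, Miip and Fv1, Miip was lower and the others higher. Cap2 and Fam8a1 were higher together, as were Smurf1, a ubiquitin ligase of the bone morphogenetic protein pathway, and Trrap, a histone acetyltransferase scaffold. Adamts14 and Prf1, the perforin gene, were lower together, as were Mns1 and Tex9. Prf1 lost its call under 9 of the 24 alternatives, including median centring and leaving out C57L/J replicate 2, C57BR-titled replicate 2 or C57BL/10J replicate 3, and Trrap lost its call under 8. Nfkbiz and Wdfy1 each lost theirs under 6, Cry1 under 5, Fam8a1 under 4, and Abi2, Ap1s3 and Fv1 each under 3. Adamts14, Mns1, Tex9 and Zfp933 each lost theirs under 1. Overlapping or adjacent genes can share probes or transcripts, which was not tested.

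**Figure D3:**
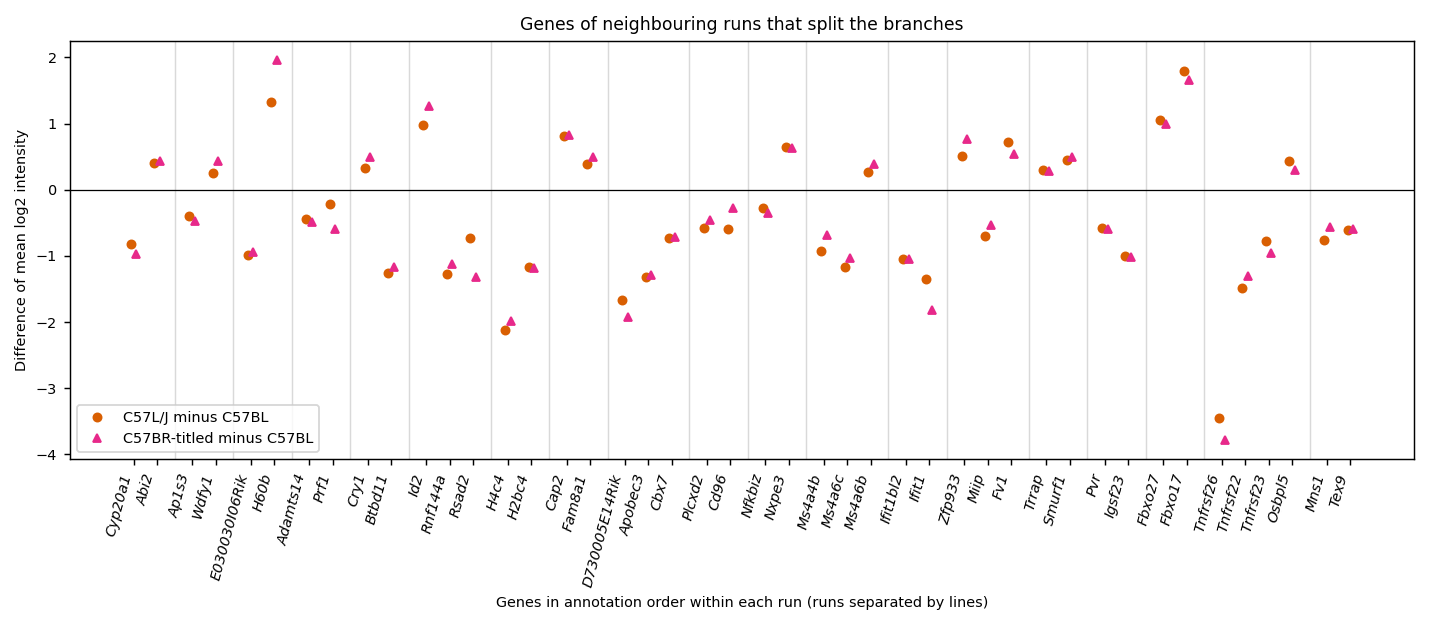
Difference of mean log2 intensity from the mean of the C57BL strains for the 44 genes in runs of neighbours, with circles for C57L/J and triangles for C57BR-titled. Both points of each gene lie on the same side of 0, as the choice of genes requires, and Tnfrsf26 lies lowest in both strains.

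Between C57L/J and C57BR-titled, 50 probe sets were called (0.201 percent), 19 higher and 31 lower in C57L/J, 29 of them by 2-fold or more. Of the 438 that split the branches, 3 were among these. Timp3, an inhibitor of matrix metalloproteinases, had 1280 and 1143 in C57L/J arrays, against 50.4 and 44.8 in C57BR-titled arrays (log2 difference 4.67, SE 0.19, adjusted p = 1.11e-25). The C57BL arrays had 40.5 to 75.4 and the other 36 strain groups 36.5 to 68.8, so C57L/J lay above every other group measured. Tulp4, a Tubby-like protein gene, had 771 and 645 in C57L/J arrays, against 136 and 147 in C57BR-titled arrays (log2 difference 2.32, SE 0.13, adjusted p = 8.99e-20). The other 36 groups had 524.8 to 896.2, so C57BR-titled lay below all of them. A second probe set of Tulp4 did not show this, with a log2 difference of 0.02 (adjusted p = 0.9999). Pdk1, a kinase that restrains pyruvate dehydrogenase, had 1213 and 1132 in C57L/J arrays, against 310.5 and 371 in C57BR-titled arrays (log2 difference 1.79, SE 0.17, adjusted p = 1.05e-10).

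The solute carrier genes Slc43a1 and Slc43a3 were both lower in C57L/J than in C57BR-titled arrays. Slc43a1 had 57.1 and 60.9 in C57L/J arrays, against 470.2 and 481 in C57BR-titled arrays (log2 difference -3.01, SE 0.19, adjusted p = 6.33e-17), and Slc43a3 had 148 and 136, against 405 and 423 (log2 difference -1.55, SE 0.14, adjusted p = 5.23e-11). Strc, which encodes stereocilin of the inner ear, had 134 and 143 in C57L/J arrays, against 391 and 396 in C57BR-titled arrays (log2 difference -1.50, SE 0.20, adjusted p = 1.50e-06), and the other 36 groups had 69.6 to 108.1. Dhx57, an RNA helicase gene, and Cfap74, a cilia gene, were lower in C57L/J too, with log2 differences of -1.37 and -1.35, and a second probe set of Cfap74 gave -1.18 (adjusted p = 3.85e-05). The small RNA genes Snord53 and Mir142 were among the named genes too (log2 difference 2.74 and -1.85).

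Between C57BL/10J and C57BL/6J, 620 probe sets were called (2.49 percent), 116 higher and 504 lower in C57BL/10J, and 33 differed by 2-fold or more. The count leaned on single arrays. Without C57BL/10J replicate 1 it was 1395, without C57BL/10J replicate 3 it was 145, and without C57BL/6J replicate 3 it was 314. Quantile normalization gave 330 calls, of which 55.2 percent were lower, and median centring 171, of which 63.2 percent were lower, against 81.3 percent as deposited. Zbtb8a, a zinc finger gene, had 102.5 and 105 in C57BL/10J arrays, against 361, 311, 345, 331 and 349.6 in C57BL/6J arrays (log2 difference -1.71, SE 0.12, adjusted p = 5.17e-16). Clic4, a chloride channel family gene, Pttg1, which encodes securin, and Rcan3, a calcineurin regulator, were lower too, with log2 differences of -1.19 to -1.40 and no overlap of arrays. Tcn2, the vitamin B12 carrier gene, had 719.7 and 1012 in C57BL/10J arrays, against 438, 419.9, 443, 427 and 434 in C57BL/6J arrays (log2 difference 0.98, SE 0.15, adjusted p = 3.14e-05). H2bc3 had 293 and 984 in C57BL/10J arrays, against 278, 227, 194, 296 and 254 in C57BL/6J arrays, so 1 array carried that difference. Jun, an immediate early gene, had 878 and 426 in C57BL/10J arrays, against 157, 173, 144, 175 and 298 in C57BL/6J arrays (log2 difference 1.74, SE 0.49, adjusted p = 0.0421). H2bc8 and H4c6 were higher and Mir15b lower in C57BL/10J, and Snord47 higher (log2 difference 1.13, SE 0.31, adjusted p = 0.0358). Of the 438 that split the branches, 26 were called between C57BL/10J and C57BL/6J.

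**Figure D4:**
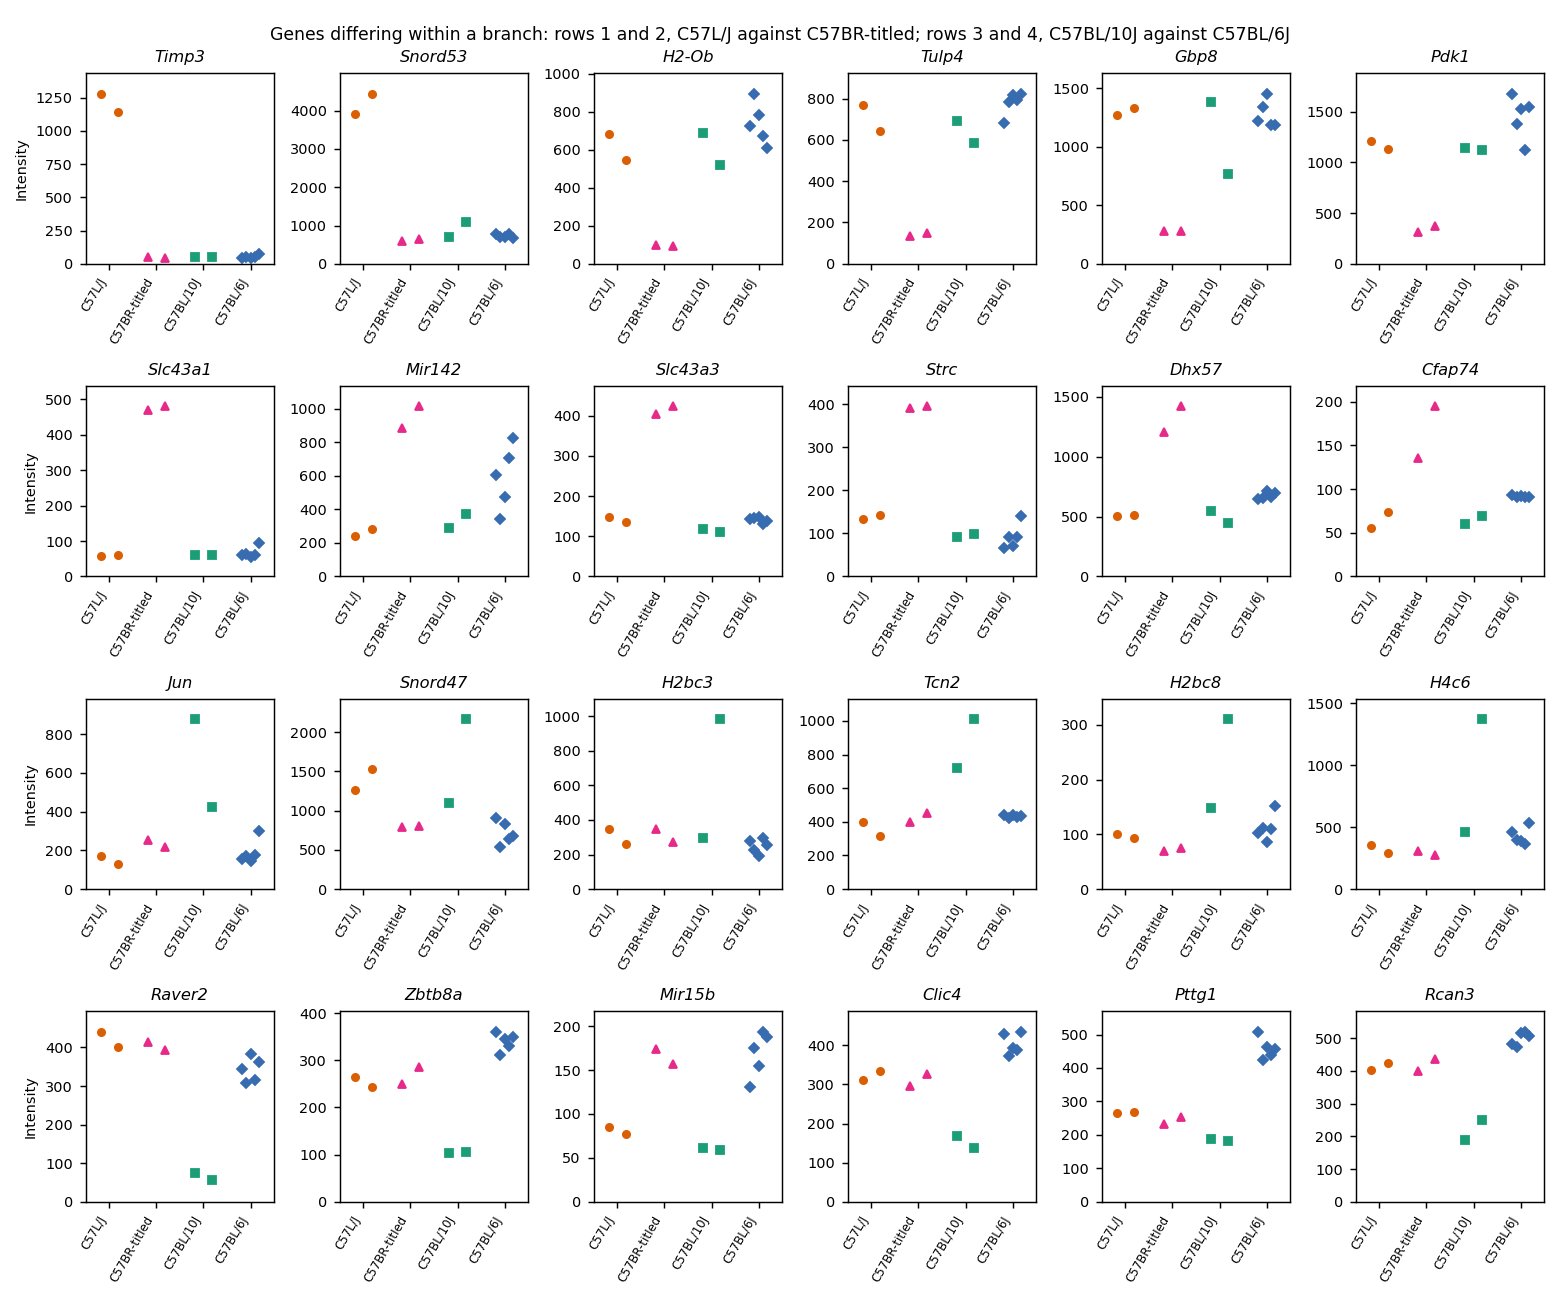
Intensity per array of the named genes with the largest differences within each branch, 6 in each direction, on linear axes from 0, with the upper 12 panels for C57L/J against C57BR-titled and the lower 12 for C57BL/10J against C57BL/6J. In most upper panels 1 of the 2 strains lies apart from the other 3 groups (Timp3 in C57L/J, Slc43a1 in C57BR-titled), and in the lower panels C57BL/10J lies apart for Raver2, Zbtb8a and Clic4.

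The other strains of the series were placed on either side of the midpoint between the branches, gene by gene. Over the 438 split probe sets, a median of 15 of the 36 other strain groups lay on the C57L and C57BR side. In 47 probe sets at least 30 of the 36 lay on the C57BL side, in 21 at least 30 lay on the C57L and C57BR side, and 370 fell between. C57BLKS/J, a strain of largely C57BL origin, was on the C57L and C57BR side for 99 (22.6 percent), the fewest of any group, and MSM/Ms, a strain from Japanese wild mice, for 289 (66.0 percent), the most. CBA/CaJ was on that side for 174 (39.7 percent).

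High Aass was shared with few strains. Only MA/MyJ, LGJ and SJL/J joined C57L/J (4195) and C57BR-titled (3991), at 4592, 3587 and 1807, and the other 33 groups had at most 32.2. Gdpd3 was above the midpoint in 9 other groups, with RIIIS/J highest at 6380, and Tnfrsf26 was low in 5 others, MA/MyJ, P/J, SM/J, MSM/Ms and JF1/Ms, at 83.7 to 92.4. Tnfrsf26 and Aass were thus both shifted with C57L/J and C57BR-titled in MA/MyJ, while CBA/CaJ had C57BL-like levels of both (1053 and 30.2). Carns1 had its lowest levels in C57L/J (73.8) and C57BR-titled (97.5), with CAST/EiJ next at 119.3. For other genes the C57BL strains were the rarer side. Acadl was low in 30 of the 36 other groups, and Id2 and Cnot8 were high in 29, as Apobec3 was low in 29.

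**Figure D5:**
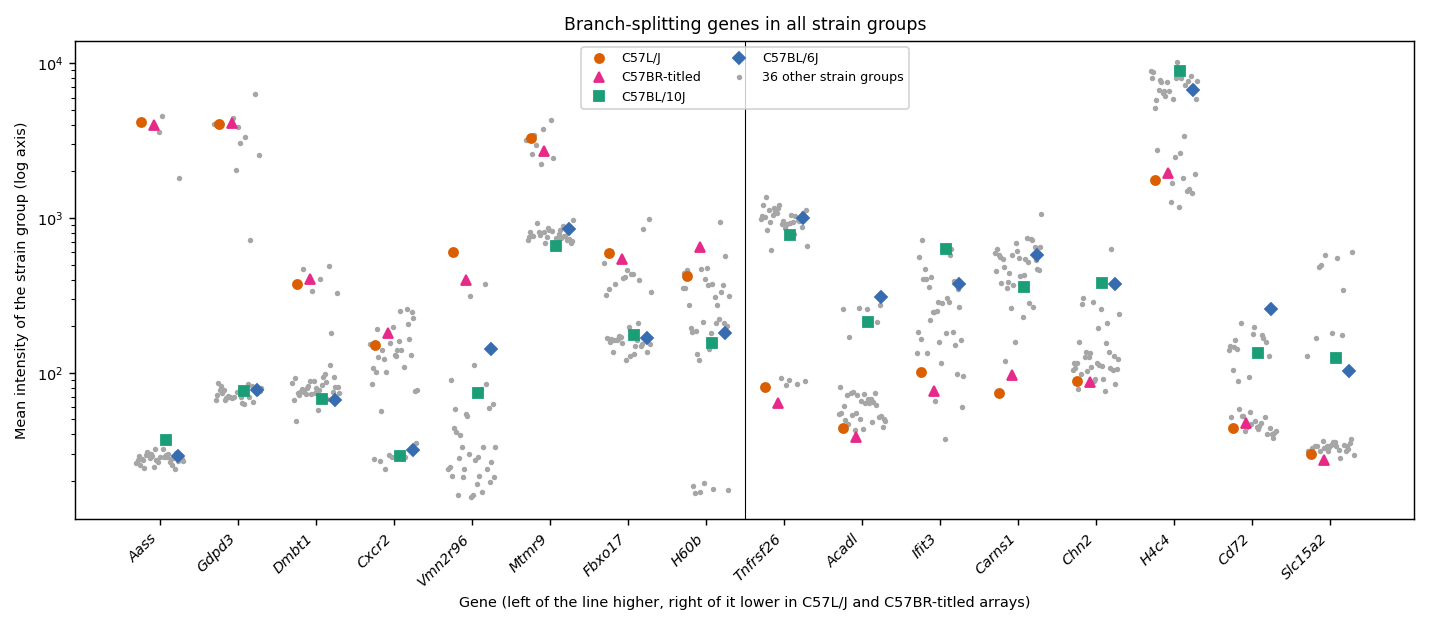
Mean intensity (log axis) of the 8 largest higher and 8 largest lower named genes in all 40 strain groups, with coloured symbols for C57L/J, C57BR-titled, C57BL/10J and C57BL/6J and grey points for the 36 others. Aass, Tnfrsf26 and Mtmr9 fall into 2 separate levels across the strains, and for Acadl most grey points lie with C57L/J and C57BR-titled.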

How the data were processed

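RNA of sorted naive CD4 T cells was measured on Affymetrix ST1.0 arrays, which read each transcript with a set of short probes. The submitters' processing notes name RMA, a method of background correction and quantile normalization with a probe summary, and Affymetrix Power Tools, without versions or a genome build. What the authors deposited is 1 linear intensity for each of 24922 probe sets on each of 82 arrays, which fall into 40 strain groups. For the tests these intensities were put on the log2 scale as they stood, unfiltered.

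Gene symbols came from the platform annotation: 21425 probe sets had 1 symbol, 1399 several and 2098 none, and only those with 1 were named. Gene order came from the GRCm38.p6 annotation and serves only to find neighbours. Probe sequences were not used here, so whether strain variants under a probe change its reading was not tested.

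A limma 3.58.1 model in R 4.3.3 (lmFit, eBayes) was fitted to all 82 arrays with 1 coefficient per group, which left 42 residual degrees of freedom and a prior of 8.09. The branch contrast was the mean of C57L/J and C57BR-titled minus the mean of C57BL/10J and C57BL/6J, adjusted by Benjamini-Hochberg with a threshold of 0.05. A fit on the 4 strain means had 2 residual degrees of freedom and a prior of 5.06. Replicates are separate pools of mice, per the labels and design text.

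Named genes were the 15 largest differences each way among split probe sets and the 6 largest each way within each branch, each with an established symbol and a higher mean above the median of all values (113.0), then up to 6 called members of each of 38 lists and all genes of neighbouring runs; members named beyond these, and those given as not called, were chosen after their values were seen. A listed gene was read from its brightest probe set. Members, lists and tests were chosen with earlier results of these data known. The alternatives were quantile normalization, median centring, dropping the 40 percent of probe sets with the lowest means, an eBayes prior that is trended and robust, adding 32 before log2, the 11 arrays alone, a replicate block, equal weight per array, the B cell mean as a covariate, and leaving out each array and each strain.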

Additional observations from a re-analysis of the deposited data

Results flagged for a closer look

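Among the 30 named genes with the largest branch differences, the 5 C57BL/6J arrays held 3 single values set apart from the other 4, relative to the range of the 5. Hal had 49.8 on C57BL/6J replicate 5, against 74.8 to 86.7 on the others. Eif2ak2 had 212.2 on C57BL/6J replicate 3, against 165.8 to 170.9, and Btbd11 had 354.7 on the same array, against 324.5 to 332.9. The gap was set against Dixon's 95 percent critical value, which by its construction passes about 1 in 20 groups by chance. Each of the 3 genes kept the direction and the call of its branch difference without that array.

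Among the genes named for the branch difference, 2 also differed between C57L/J and C57BR-titled by the test of that difference. H2-Ob was higher in C57L/J by 2.65 on the log2 scale and Gbp8 by 2.21, with C57BR-titled the strain that lay apart from C57BL in each.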

How the results depend on the processing

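The count of 732 probe sets for the branch difference became 439 after median centring, 281 with the 11 arrays fitted alone, 433 without the strain C57L/J and 379 without the strain C57BR-titled, and 448 to 1006 with 1 array left out. It stayed within 1.5 times of 732 under the other alternatives run, apart from the replicate block below. The 50 calls of C57L/J against C57BR-titled became 25 with the 11 arrays alone and 34 to 42 with 1 array left out. The 620 of C57BL/10J against C57BL/6J became 330 after quantile normalization, 171 after median centring, 70 with the 11 arrays alone and 145 to 1395 with 1 array left out. The 143 calls shared by the disjoint pairs became 69 with the 11 arrays alone and 96 to 151 with 1 array left out, and 148 for the crossed pairs. The strain means gave 121 calls with a trended and robust prior, against 76. With fewer arrays the fit has fewer degrees of freedom; the other causes were not tested. The 30 named genes of largest difference kept their direction under all 24 settings, and 2 lost their call once, Raver2 and Slc15a2. Of the 109 genes named for the branch difference, 55 lost the call or turned sign under at least 1 of the 24 settings. Counted over genes and settings, 2335 values kept direction and call, 263 lost the call and 1 turned sign. The last was Gbp8, at 0.18 without the strain C57BR-titled. Deviations of same-numbered arrays from their strain means correlated at -0.37 to 0.20 (10 pairs, 1 over 0.1). In a strain with 2 arrays, 1 deviation mirrors the other, so these values cannot decide whether the numbers pair the samples. With the replicate number as a block the branch difference gave 461 calls, and 52, 729 and 113 for the other 3 counts in the order above. The number of arrays, 2 in 3 of the 4 strains, limits the precision.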
